A study of Mus musculus with 2 samples.

Results

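Ugt8a, Gal3st1, Fa2h, Cers2, Aspa, Elovl1 and Elovl7 encode enzymes that make the galactolipids of myelin or supply their parts, and their RNA was measured in the cerebral cortex of aged mice. The 7 genes were taken by symbol from the 55536 annotated genes of the deposited tables, and all 7 were present and detected, meaning a TPM (a transcript abundance normalized for length and depth) of 1 or more, in both libraries. The series holds 2 libraries of a single group, biological replicates 2 and 1, of total RNA from the left cortex of male mice of the B6CASTF1/J cross (the offspring of B6 and CAST strains) at 18 to 20 months of age. Each library was made from 300 ng of RNA with ERCC spike-ins added. Per the labels, both samples carry the same donor identifier with separate biosample identifiers. The labels do not say whether separate animals were used, so the spread between the libraries may be technical. No second condition was measured, so the data give the levels, the transcripts and the difference between these libraries, and no p-value.

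Myelin is the lipid-rich sheath that oligodendrocytes wrap around axons in the brain. Its most characteristic lipids are galactosylceramide and the sulfated form, sulfatide, which are built from ceramides carrying very long and often hydroxylated fatty acid chains. Elovl1 and Elovl7 lengthen fatty acyl chains, Cers2 joins very long chains to the sphingoid base, Fa2h adds the hydroxyl group, Ugt8a transfers galactose to the ceramide, and Gal3st1 transfers sulfate to that galactose. Aspa, found in oligodendrocytes, cleaves N-acetylaspartate made by neurons and releases acetate, which can enter lipid synthesis.

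The genes differed in the base composition of their start regions. RefSeq (GRCm38.p6) promoter windows, which span 250 bases before to 50 bases after a start, matched 6 of the 7 genes with 10 windows; Fa2h was not matched. The windows of Ugt8a, Aspa and Gal3st1 are shown because they differ most in composition (Ugt8a and Aspa) or because the gene has separated starts (Gal3st1). They are given 5′ to 3′ on the gene's strand, Ugt8a at chr3:125938603-125938902 (minus), Aspa at chr11:73324588-73324887 (minus), and Gal3st1 at chr11:3983386-3983685 and chr11:3989683-3989982 (plus). Capitals mark matches on either strand to any of 3 motifs. The GC box was searched as GGGCGG. The TATA box was searched as TATAAA. The CCAAT box was searched by the letters of its name.
Ugt8a: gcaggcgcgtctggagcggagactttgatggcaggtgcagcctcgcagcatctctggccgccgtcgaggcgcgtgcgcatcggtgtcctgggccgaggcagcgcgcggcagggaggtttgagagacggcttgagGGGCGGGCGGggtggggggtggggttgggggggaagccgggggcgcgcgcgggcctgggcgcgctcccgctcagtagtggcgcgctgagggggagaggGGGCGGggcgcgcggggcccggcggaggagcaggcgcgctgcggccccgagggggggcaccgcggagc
Aspa: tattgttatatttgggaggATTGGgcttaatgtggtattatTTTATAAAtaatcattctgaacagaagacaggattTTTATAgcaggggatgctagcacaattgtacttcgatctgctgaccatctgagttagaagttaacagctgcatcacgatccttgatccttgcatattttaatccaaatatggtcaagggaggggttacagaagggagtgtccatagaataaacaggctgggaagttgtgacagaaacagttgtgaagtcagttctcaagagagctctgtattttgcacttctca
Gal3st1, upstream start: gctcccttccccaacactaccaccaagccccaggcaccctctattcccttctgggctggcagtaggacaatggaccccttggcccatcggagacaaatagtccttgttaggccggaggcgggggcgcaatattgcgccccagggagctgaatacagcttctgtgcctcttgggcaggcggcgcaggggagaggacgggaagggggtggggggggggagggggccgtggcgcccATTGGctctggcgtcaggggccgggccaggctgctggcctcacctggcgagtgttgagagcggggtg
Gal3st1, downstream start: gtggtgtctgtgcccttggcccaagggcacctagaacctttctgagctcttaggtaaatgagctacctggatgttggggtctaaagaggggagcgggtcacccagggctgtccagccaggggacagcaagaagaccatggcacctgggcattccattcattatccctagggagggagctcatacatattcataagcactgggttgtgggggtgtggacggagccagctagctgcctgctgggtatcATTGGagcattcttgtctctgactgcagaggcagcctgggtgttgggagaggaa

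The Ugt8a window was 78.3% G or C and held 40 CpG dinucleotides, a count higher than in 96.1% of the 32851 promoter windows of the table. It held 3 GC boxes, of which the first pair overlap. The Aspa window was 39.0% G or C, at percentile 8.38 of all windows, and held 2 CpG dinucleotides and no GC box. It had 3 TATA box matches, of which 1 pair overlaps on opposite strands. All 3 lay nearer the upstream end of the window than the start, and whether they act as TATA boxes was not tested. The median window was 52.7% G or C with 7 CpG dinucleotides. The upstream Gal3st1 window was 67.0% G or C with 14 CpG dinucleotides, and the downstream one was 56.0% G or C with 2. Both Gal3st1 windows and the Aspa window held a CCAAT box, which 37.4% of all windows hold. Of all windows, 35.7% hold a GC box and 13.6% a TATA box. ACAAAG, a core motif of SOX factors, was also searched on both strands. It was found in 0 of the 10 windows and in 18.7% of all windows, which says only that these letters are absent there.

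Cers2 was the most abundant of the 7 genes. Cers2 (ENSMUSG00000015714.11, chr3:95314791-95323599, plus strand, mm10) had 18.7 TPM in replicate 2 and 19.9 TPM in replicate 1, a mean of 19.3 ± 0.849 TPM (SD, n = 2). Its level stood above each of the other 6 genes, by 7.32-fold over Elovl7 and by 2.00-fold over Elovl1. A gene is said to stand above another where, in each library alike, its deposited TPM credibility interval lies wholly above the other's. Even so, Cers2 ranked at percentile 55.6 of the 12868 nuclear protein-coding genes detected in both libraries, close to the middle of expressed genes. Its last exon overlaps the end of Setdb1 on the other strand, which had 14.9 TPM in replicate 2 and 16.8 TPM in replicate 1, and its 5′ end overlaps an antisense transcript, 6330562C20Rik, at 0.58 and 0.85 TPM in replicates 2 and 1. No source used here states whether strand was used in counting, so reads of these overlaps cannot be told apart.

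By mean TPM the elongases lay at opposite ends of the other 6 genes. Elovl1 (ENSMUSG00000006390.15, chr4:118428093-118432953, plus strand) had 8.26 TPM in replicate 2 and 11.3 TPM in replicate 1, a mean of 9.78 ± 2.15 TPM (SD, n = 2). Its 3′ end overlaps Cdc20 on the other strand, which had 0.55 TPM in replicate 2 and 0.64 TPM in replicate 1. Elovl7 (ENSMUSG00000021696.9, chr13:108214404-108285683, plus strand) had 2.53 TPM in replicate 2 and 2.75 TPM in replicate 1, a mean of 2.64 ± 0.156 TPM (SD, n = 2), the lowest mean of the 7.

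Ugt8a, Fa2h and Gal3st1, which add galactose, a hydroxyl group and sulfate, had means in that descending order. Ugt8a (ENSMUSG00000032854.12, chr3:125865271-125938619, minus strand) had 9.12 TPM in replicate 2 and 8.41 TPM in replicate 1, a mean of 8.77 ± 0.502 TPM (SD, n = 2). Fa2h (ENSMUSG00000033579.16, chr8:111345135-111393824, minus strand) had 6.29 TPM in replicate 2 and 6.53 TPM in replicate 1, a mean of 6.41 ± 0.170 TPM (SD, n = 2). Gal3st1 (ENSMUSG00000049721.14, chr11:3983636-3999326, plus strand) had 3.90 TPM in replicate 2 and 2.84 TPM in replicate 1, a mean of 3.37 ± 0.750 TPM (SD, n = 2). Gal3st1 stood below Ugt8a, the enzyme that makes its substrate, which was 2.34-fold higher in replicate 2 and 2.96-fold higher in replicate 1. Ugt8a and Fa2h were not separable in level.

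Aspa (ENSMUSG00000020774.9, chr11:73304992-73329596, minus strand) had 5.35 TPM in replicate 2 and 5.25 TPM in replicate 1, a mean of 5.30 ± 0.0707 TPM (SD, n = 2). In order of mean TPM the genes ran Cers2, Elovl1, Ugt8a, Fa2h, Aspa, Gal3st1, Elovl7. Of their 21 pairs, 14 were ordered in both libraries, which gave 3 tiers. Cers2 formed the top tier. Elovl1, Ugt8a, Fa2h and Aspa formed a middle tier in which no pair was ordered by these intervals, and each of them stood above Gal3st1 and Elovl7, which were not separable from each other. For all 7 genes the deposited intervals of the 2 libraries overlapped.

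**Figure D1:**
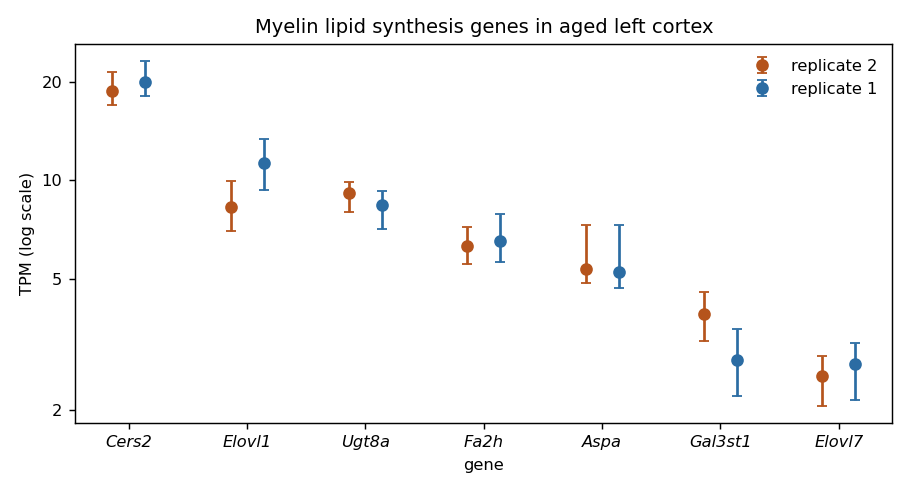
Deposited TPM (log axis) of the 7 genes in replicate 2 (orange) and replicate 1 (blue), with bars for the deposited credibility interval of each value. Cers2 lies at 18.7 and 19.9 TPM in replicates 2 and 1, above every other gene, while Gal3st1 and Elovl7 lie below 4 TPM in both libraries.

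The second deposited table, which estimated transcripts directly from a read file, gave higher TPM for every member. In it, Cers2 had 33.3 TPM in replicate 2 and 31.8 in replicate 1, Elovl1 17.2 and 23.6, Ugt8a 13.0 and 11.8, Aspa 10.6 and 10.2, Fa2h 9.45 and 9.48, Gal3st1 5.40 and 3.91, and Elovl7 3.999 and 4.18, with replicate 2 given before replicate 1 throughout. Nuclear protein-coding genes held 44.4% of TPM in replicate 2 and 46.6% in replicate 1 in the first table, but 75.0% and 75.6% in the second. After both tables were rescaled to those genes alone, the mean for Cers2 was 42.5 in the first table and 43.3 in the second, and the mean for Ugt8a was 19.3 and 16.5. Rescaled means differed more for Elovl1, at 21.4 in the first table and 27.1 in the second, and for Aspa, at 11.7 and 13.8. Reads assigned to Aspa also differed between the tables, with 173 and 137 expected counts in the first table against 228 and 209 estimated counts in the second, in replicates 2 and 1.

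The 7 genes had 34 annotated transcripts, and in the first table the largest share of TPM went to the same transcript in both libraries for 6 of them. Gal3st1-201, Fa2h-201, Cers2-201 and Elovl7-201 led with 64.8%, 70.5%, 62.6% and 56.6% of their gene's TPM in replicate 2 and with 48.3%, 52.0%, 66.2% and 50.1% in replicate 1. Ugt8a-201 held 82.4% in each library. Aspa-201 held 82.5 ± 3.37% over the 2 libraries (SD, n = 2). Elovl1 was the exception, led by Elovl1-207 in replicate 2 and by Elovl1-203 in replicate 1, and its largest single share was 27.5%, in replicate 2. Elovl7-201 led Elovl7-202 narrowly in replicate 1, by 50.1% to 49.9%. In the second table the leading transcript was the same in both libraries for 5 of the 7 genes. There Elovl1-203 led Elovl1 in both, Ugt8a was led by different transcripts, and Elovl7 was led by Elovl7-201 in replicate 2 (60.4%) and by Elovl7-202 in replicate 1 (51.8%).

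For Ugt8a and Aspa the tables placed the RNA on different starts. In the second table Ugt8a-203, which begins at position 125915885 within the gene, held 75.3% of Ugt8a TPM in replicate 2 and 39.7% in replicate 1, whereas the first table gave it 3.41% and 0%. Accordingly, the transcripts that start within 150 bases of the Ugt8a window shown above held 96.6% and 100% of TPM in the first table but 24.7% and 60.3% in the second, in replicates 2 and 1. In the second table Aspa-206, which begins upstream at position 73329596, led Aspa with 44.4% in replicate 2 and 46.1% in replicate 1. The starts at the Aspa window shown above held 92.3% and 85.7% of Aspa TPM in the first table against 20.8% and 31.5% in the second, in replicates 2 and 1. For Gal3st1, the upstream start held 76.1% and 79.6% in the first table and 100% and 77.5% in the second, in replicates 2 and 1.

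Several transcripts that differed in start shared an annotated reading frame. Ugt8a-201 and Ugt8a-203 share a reading frame of 541 residues, Aspa-201 and Aspa-206 one of 312 residues, and the 3 Gal3st1 transcripts one of 423 residues, by annotated coding length. All Gal3st1 TPM therefore came from transcripts with the full reading frame in both tables. For Ugt8a that share was 85.9% in replicate 2 and 82.4% in replicate 1 in the first table, and 96.7% and 90.7% in the second. The rest of Ugt8a was a retained-intron transcript.

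The share of transcripts annotated as not protein-coding differed between genes, libraries and tables. In the first table's Fa2h they held 29.5% of TPM in replicate 2 and 48.1% in replicate 1. The gap lay mostly in the retained-intron transcript Fa2h-204, at 14.0% and 30.6%. The second table gave 28.8% and 46.3% for the same class in replicates 2 and 1. In Elovl7, the nonsense-mediated decay transcript Elovl7-202 held 43.4% in replicate 2 and 49.9% in replicate 1 in the first table, and 39.6% and 51.8% in the second. In Cers2, 5 retained-intron transcripts held 33.6% in replicate 2 and 30.6% in replicate 1, and 30.8% and 28.2% in the second table. In Aspa, transcripts not protein-coding held 15.1% in replicate 2 and 19.8% in replicate 1 in the first table, against 20.7% and 37.8% in the second. In Elovl1 they held 20.3% in replicate 2 and 25.8% in replicate 1 in the first table, against 31.2% and 44.0% in the second. The 279-residue frame of Elovl1, shared by Elovl1-201 and Elovl1-207 and by Elovl1-202 from a later start, held 57.7% in replicate 2 and 48.6% in replicate 1 in the first table, but 36.0% and 23.8% in the second. Elovl1-203, which encodes 202 residues, held 23.8 ± 2.58% in the first table and 32.5 ± 0.368% in the second (SD, n = 2 each).

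**Figure D2:**
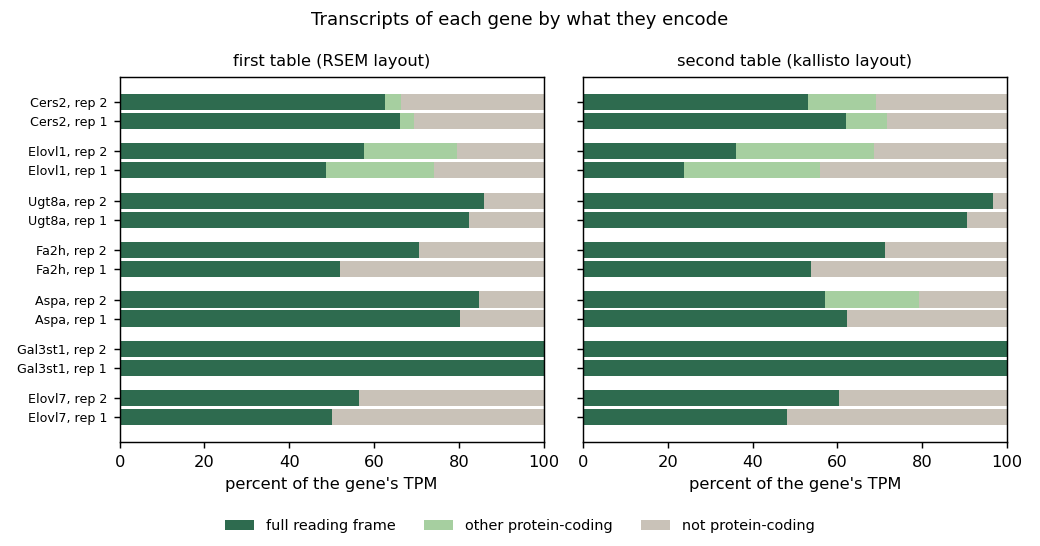
Percent of each gene's TPM in transcripts with the full reading frame (dark green), in other protein-coding transcripts (light green) and in transcripts not annotated as protein-coding (grey), for replicates 2 and 1 in the first table (left) and the second (right). Gal3st1 is at 100% full reading frame in every bar, and Fa2h is at 51.9% in replicate 1 of the first table.

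Within their own families the members were not the genes with the highest RNA level in this tissue. Among the 7 elongases Elovl1 had rank 4 and Elovl7 rank 6 by mean TPM, and they held 10.9% and 2.94% of the family's summed TPM. Elovl4, which makes the longest chains, had 28.4 ± 1.23 TPM, and Elovl5, an elongase of polyunsaturated chains, had 28.2 ± 1.17 TPM (SD, n = 2 each). Elovl6 and Elovl2 had 14.1 ± 3.17 and 6.62 ± 0.474 TPM (SD, n = 2 each), and Elovl3 was near 0, at 0.03 TPM in replicate 2 and 0.05 TPM in replicate 1. The intervals separated Elovl1 from both neighbours, Elovl6 above and Elovl2 below.

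Among the 6 ceramide synthases Cers2 had rank 4 by mean TPM and held 14.9% of the summed TPM. Cers1, the synthase of neuronal stearoyl ceramide, had 37.2 TPM in replicate 2 and 38.8 TPM in replicate 1. These were 1.99-fold and 1.95-fold the level of Cers2. Unlike those of the other synthases, the expected counts of Cers1 were not whole, at 1924.06 in replicate 2 and 1417.85 in replicate 1. Overlap with other genes was looked up for the members only, so sharing of Cers1 reads was not tested. Cers6 had 35.0 ± 4.43 TPM, Cers4 21.4 ± 3.64 TPM and Cers5 16.1 ± 1.80 TPM (SD, n = 2 each). Cers2 was not separable from Cers4 or Cers5. Cers3, known for its role in skin, was at 0.18 TPM in replicate 2 and 0.17 TPM in replicate 1.

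**Figure D3:**
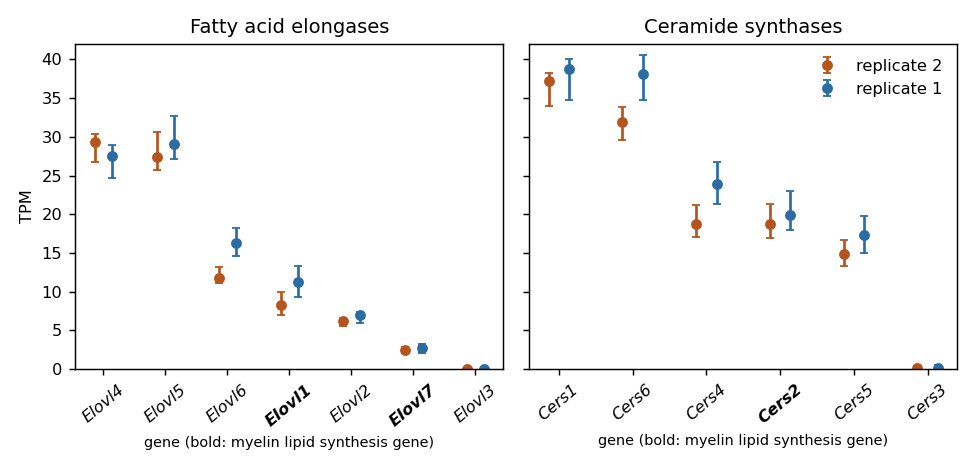
Deposited TPM with its credibility interval for the elongase family (left) and the ceramide synthase family (right) in replicate 2 (orange) and replicate 1 (blue), genes ordered by mean TPM. Elovl1 lies at 8.26 and 11.3 TPM in replicates 2 and 1, below Elovl4, Elovl5 and Elovl6, and Cers2 lies below Cers1 and Cers6.

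Enzymes that compete for, supply or degrade the same substrates were set beside the members. Ugcg, which puts glucose in place of galactose on ceramide, stood above Ugt8a by 3.94-fold in replicate 2 and 4.36-fold in replicate 1. Galc, the lysosomal enzyme that removes the galactose again, had 8.97 TPM in replicate 2 and 11.9 TPM in replicate 1 and was not separable from Ugt8a. Arsa, which removes the sulfate added by Gal3st1, stood above Gal3st1 by 3.49-fold in replicate 2 and 4.73-fold in replicate 1. Nat8l, the neuronal enzyme that makes the substrate of Aspa, stood above Aspa by 16.7-fold in replicate 2 and 18.8-fold in replicate 1. Mbp, the major myelin basic protein, stood above Ugt8a by 43.7-fold in replicate 2 and 44.95-fold in replicate 1.

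Between the libraries, Ugt8a and Gal3st1 rose in replicate 2 beyond counting error, and the other 5 genes did not pass. Gal3st1 had 137 expected counts in replicate 2 against 71 in replicate 1. Its log2 ratio was 0.60 (0.18 to 1.04, the 95% counting interval), or 1.52-fold (1.13 to 2.06). Ugt8a had 622 expected counts in replicate 2 against 401 in replicate 1, and its log2 ratio was 0.29 (0.11 to 0.47), or 1.22-fold. Ratios are replicate 2 over replicate 1 after TMM scaling, and a gene is called where the exact interval from its 2 counts excludes 0, which describes these 2 libraries only. These ratios compare counts, and a gene's TPM can differ in the other direction. Of 12347 genes tested, those whose mean count reached 100, 28.1% were called higher and 15.6% lower in replicate 2. The 2 of 7 genes called higher and 0 of 7 called lower are read against those shares, and the higher count lies at the background. In bulk tissue, fewer cells of a type and less RNA per cell cannot be told apart.

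The 5 genes not called had intervals on both sides of 0. Fa2h had 284 expected counts in replicate 2 against 196 in replicate 1 (log2 ratio 0.19, −0.08 to 0.46). Elovl1 had 187 in replicate 2 against 175 in replicate 1 and the lowest log2 ratio of the 7, −0.25 (−0.55 to 0.06). Both intervals reach past 0, by less for Elovl1 than for Fa2h. Elovl7 had 167 and 126 expected counts in replicates 2 and 1 (log2 ratio 0.06, −0.28 to 0.41). Aspa had 173 and 137 (−0.01, −0.34 to 0.33), and Cers2 had 619 and 493 (−0.02, −0.19 to 0.16). By TPM, Fa2h, Elovl7 and Aspa differed in the other direction. Fa2h had 6.29 TPM in replicate 2 and 6.53 in replicate 1, Elovl7 2.53 and 2.75, and Aspa 5.35 and 5.25. The median log2 ratio of the 7 genes was 0.06, beside 0.05 over all genes tested.

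Scaling on the spike-in totals moved the median log2 ratio of all tested genes to −0.07 and left 1 of the 7 genes called higher and 1 called lower, beside backgrounds of 7.65% higher and 34.7% lower. Under it Gal3st1, at a log2 ratio of 0.47, was still called higher, that of Ugt8a was 0.16 and no longer called, and that of Elovl1 was −0.37 and called lower. For all 7 genes the deposited expected counts were whole numbers within 0.005, as they were for 83.8% of the tested genes.

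Genes for myelin proteins and markers of other cells and tissues were set beside these ratios. Of 12 myelin protein and mature oligodendrocyte genes, 11 were tested, 8 were higher in replicate 2 and 0 were lower, with a median log2 ratio of 0.20. Their summed level was 877 TPM in replicate 2 and 852 TPM in replicate 1. Mbp had a log2 ratio of 0.20, Cnp, a myelin enzyme, 0.35, and Mal, a myelin proteolipid, 0.01, the last not called. All 8 of the striatal neuron markers were higher in replicate 2, by log2 ratios of 1.10 to 2.48, with a sum of 330 TPM in replicate 2 and 152 TPM in replicate 1. Of 5 choroid plexus markers 2 were tested. Ttr, a defining transcript of that tissue, had 17.1 TPM in replicate 2 and 9.59 TPM in replicate 1 and was called higher, while Kl had 1.28 TPM in replicate 2 and 1.45 TPM in replicate 1 and was not called (log2 ratio −0.04). All 6 markers of cortical excitatory neurons were detected, with Camk2a at 1112 ± 87.3 TPM and Slc17a7 at 572 ± 13.3 TPM (SD, n = 2 each). Their summed level was 1806 TPM in replicate 2 and 1969 TPM in replicate 1. Among markers of Schwann cells, the myelinating cells of peripheral nerve, Prx, Ncmap and Pmp2 lay at 0 to 0.20 TPM in both libraries, and Drp2 was detected at 26.4 ± 3.65 TPM (SD, n = 2). The part of the striatal and oligodendrocyte markers and of Ttr in the Ugt8a and Gal3st1 differences was not tested.

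**Figure D4:**
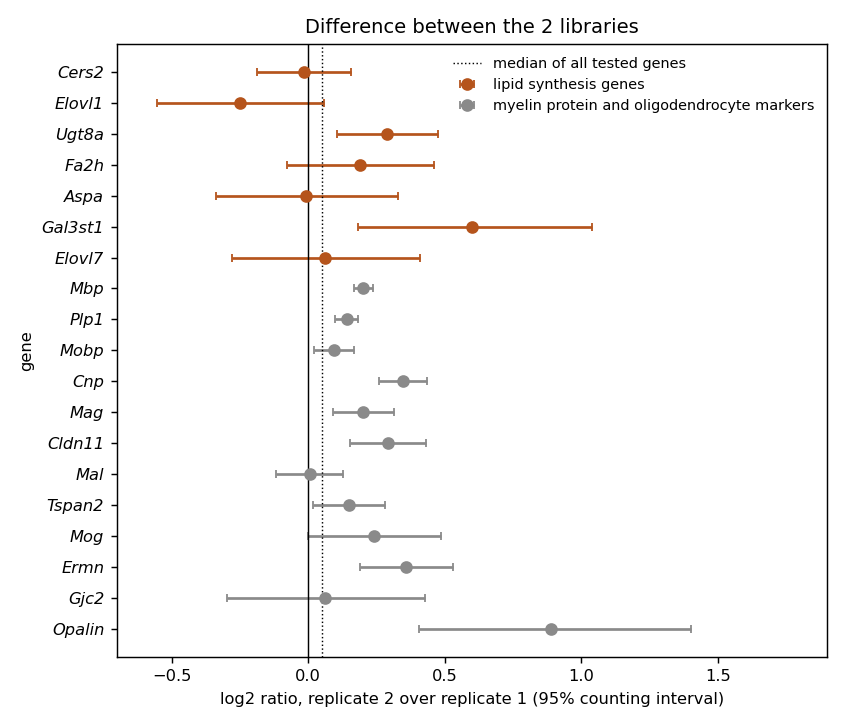
Log2 ratio of replicate 2 over replicate 1 with the 95% counting interval for the 7 lipid synthesis genes (orange) and 12 myelin protein and oligodendrocyte markers (grey); the solid line is 0 and the dotted line the median of all tested genes, 0.05. Among the 7 genes, the intervals of Ugt8a and Gal3st1 lie wholly above 0, and Opalin, shown for completeness, had a mean count under 100 and was not tested.

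The 6 lists of neighbouring pathways held 84 genes, of which 76 were detected in both libraries and 71 were tested. Of these, 26 were higher in replicate 2, 7 were lower and 38 were not called, with a median log2 ratio of 0.09. The share higher, like that of the members, is read against 28.1% over all tested genes, and the split moved with the scaling, to 18 higher and 10 lower with TMM over nuclear protein-coding genes and to 4 higher and 21 lower with spike-in totals.

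Ceramide and sphingolipid synthesis had 4 of 16 tested genes higher and 2 lower. Its most abundant genes were Cers1, Ugcg (36.3 ± 0.467 TPM, SD, n = 2) and Cers6. Sgms2, a sphingomyelin synthase, had 2.20 TPM in replicate 2 and 0.96 TPM in replicate 1 and a log2 ratio of 0.53, called higher. Ormdl1, a brake on the first step of sphingolipid synthesis, had a log2 ratio of 0.32 that was not called. Fatty acid supply had 8 of 18 tested genes higher and 1 lower. Tecr, the last reductase of the elongation cycle that all Elovl enzymes share, was at 262 ± 5.97 TPM, and the desaturases Scd2 and Fads1 were at 258 ± 7.42 and 75.8 ± 3.34 TPM (SD, n = 2 each). Acly, which makes acetyl-CoA from citrate, had a log2 ratio of 0.22, called higher, and the carboxylase Acacb one of −0.21, not called. Elovl4 was higher in replicate 2, with a log2 ratio of 0.20, and Elovl6 lower, with −0.20.

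N-acetylaspartate and acetate use had 1 of 8 tested genes higher and 1 lower. Nat8l led with 94.2 ± 6.78 TPM, followed by Rimklb, which makes N-acetylaspartylglutamate, at 23.9 ± 0.438 TPM and Acss2, which converts acetate to acetyl-CoA, at 22.5 ± 3.01 TPM (SD, n = 2 each). Rimklb fell below Acss2 in the second quantification, at 15.3 against 31.4 TPM in replicate 2 and 18.2 against 37.0 TPM in replicate 1. Slc13a3, a carrier that takes up N-acetylaspartate, was the gene called higher (log2 ratio 0.23) and Acss2 the gene called lower (−0.19). Galactose and sulfate donor supply had 4 of 11 tested genes higher and 1 lower. Ugp2, Galt and Gal3st3, which make or use activated sugars or sulfate galactose, were at 34.3 ± 0.0919, 33.8 ± 7.25 and 33.6 ± 2.59 TPM (SD, n = 2 each). Papss2, which makes the sulfate donor that Gal3st1 uses, had 4.65 TPM in replicate 2 and 3.66 TPM in replicate 1 and a log2 ratio of 0.50, called higher. Galt had 28.7 TPM in replicate 2 and 38.9 TPM in replicate 1 and a log2 ratio of −0.34, called lower.

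Lysosomal breakdown of glycolipids had 5 of 8 tested genes higher and 1 lower, with a median log2 ratio of 0.18. Psap, the precursor of the saposin activators, was at 691 ± 13.7 TPM, and the acid sphingomyelinase Smpd1 was at 41.8 ± 1.69 TPM (SD, n = 2 each). Sumf1, which activates sulfatases such as Arsa, had a log2 ratio of 0.30, called higher. The TPM of Sumf1 did not rise, at 10.3 in replicate 2 and 10.9 in replicate 1. Galc had a log2 ratio of −0.27, called lower. Ether lipid synthesis and peroxisomal oxidation had 4 of 10 tested genes higher and 1 lower. Far1, which makes the fatty alcohol of plasmalogens, was at 52.4 ± 9.98 TPM, and Gnpat, the first enzyme of ether lipid synthesis, at 25.4 ± 1.05 TPM (SD, n = 2 each). Far1 was the gene called lower, with a log2 ratio of −0.19. Pex7, the import receptor that brings Agps into peroxisomes, and Agps itself had log2 ratios of 0.26 and 0.22, both called higher. The TPM of Pex7 did not rise, at 11.2 in replicate 2 and 11.6 in replicate 1.

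**Figure D5:**
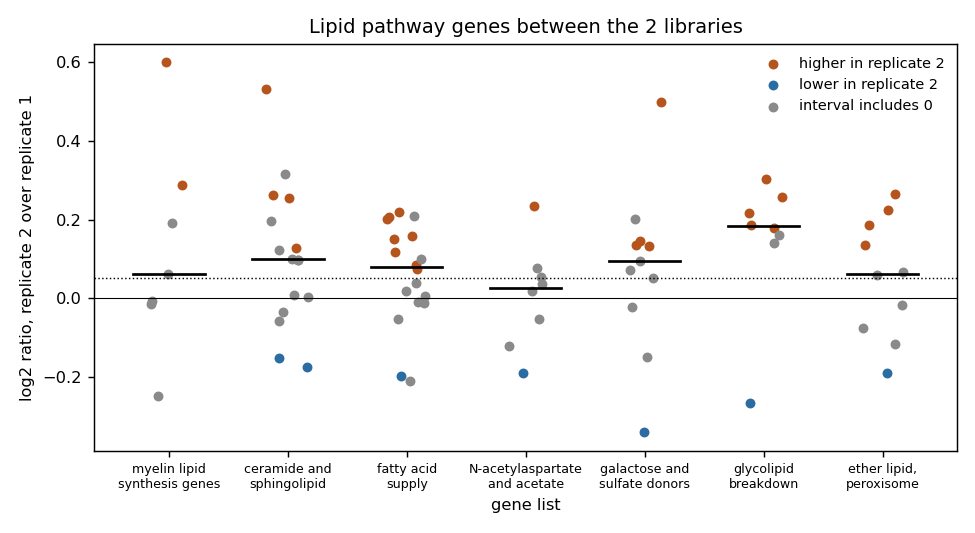
Log2 ratio of replicate 2 over replicate 1 for each tested gene of the 7 lipid synthesis genes and of 6 neighbouring pathway lists, coloured by whether the counting interval lies above 0 (orange), below 0 (blue) or includes 0 (grey). Short bars are list medians, from 0.03 for N-acetylaspartate and acetate to 0.18 for glycolipid breakdown, and the dotted line is the median of all tested genes, 0.05.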

How the data were processed

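Per the file headers, each library had a gene table and a first transcript table in RSEM layout and a second transcript table in kallisto layout. The file lists name mm10 as assembly and GENCODE M21 as annotation. No aligner, tool version or strand setting is given in the sources used here. Per the file headers, reads per gene or transcript are expected counts in the first layout and estimated counts in the second, as deposited by the authors. The deposited TPM values are scaled per length over all listed features. The bounds of the TPM credibility interval are a deposited signal of never-negative values whose level is not given. Each transcript's percent share of its gene was likewise deposited. The reference genome was used for a hybrid with a CAST parent, and its effect on counts was not measured.

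Expected counts of annotated genes summed to 29897545 in replicate 2 and 22827996 in replicate 1. They were rounded, and a log2 ratio was taken after adding 0.5, with a TMM offset of 0.34 (edgeR 4.0.16, R 4.3.3; DESeq2 1.42.0 size factors as an alternative). Exact 95% Clopper-Pearson intervals came from scipy 1.17.1. The intervals are computed from the 2 read counts alone, so they cover only counting error. Reads carry no molecular identifiers, so that error is one of reads and not of molecules. The ratio calculation was tested on counts simulated with counting error only, which the interval assumes. That test therefore checks the calculation and cannot show how the intervals perform between real libraries. A count model was not fitted because the 2 libraries form 1 group. Second-table values were added up by gene, and 86 genes were missing from it.

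The 7 genes, the pathway and marker lists and the tests were chosen with earlier results of these data known. Named pathway genes are the 3 highest by mean TPM of each list and, where the mean count reached 100, the 2 with the largest log2 ratio in either direction, plus every Elovl and Cers gene; some genes that this rule or a marker list would name are not reported here. Marker lists are given by counts, sums and their highest genes, with the calls of the tested oligodendrocyte regulators by name, and Ttr, Mal, Cnp, Galc and Arsa were added for their roles.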

Additional observations from a re-analysis of the deposited data

How the results depend on the processing

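The median log2 ratio of the 7 genes, 0.06, ran from −0.06 with spike-in totals, where its sign changed, to 0.16 in the second quantification over 6 alternatives. The number of ordered pairs, 14 of 21, was 17 in either library alone. The second quantification and expected counts per effective length gave 15 each, under another rule, a log2 difference over 0.5 in both libraries, so the value and the rule changed together. By that rule Elovl1 was above Fa2h and Aspa in the second quantification while Cers2 and Elovl1 were not ordered. By counts per length Elovl1 and Ugt8a were above Aspa while Aspa and Gal3st1 were not ordered, a pair whose log2 difference in TPM was 0.46 in replicate 2. Scaling on spike-in totals gave 1 of the 7 genes higher and 1 lower, against 2 and 0, and 4 pathway genes higher and 21 lower, against 26 and 7, with the median of all genes moving as well. The second quantification also left 1 gene higher; there Gal3st1 had a log2 ratio of 0.64 but a mean count under the minimum of 100, so it was not tested. The median level of the 7 genes, 6.41 TPM, was 14.1 after rescaling to nuclear protein-coding genes by the change of denominator, and 10.4 in the second quantification, where the cause was not tested. Without replicate 1 it was 6.29 TPM and without replicate 2 it was 6.53 TPM. At a TPM of 5 or more, 5 of the 7 genes were detected. A ratio needs both libraries and has no value with 1 left out. No paired analysis was possible because the series holds a single group. At 71 to 622 expected counts per gene and library, differences smaller than the intervals given were not detectable.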

Other observations

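Regulators of oligodendrocytes and of lipid synthesis, and progenitor markers, were measured as well. Of 11 regulators of oligodendrocytes and lipid synthesis, 10 were tested, 6 were higher in replicate 2 and 0 were lower, with a median log2 ratio of 0.13. Those higher were the lineage factors Sox10, Olig1 and Olig2 and the lipid regulators Srebf1, Srebf2 and Scap. Myrf, Tcf7l2, Zfp24 and Qk were not called. Over all tested genes 28.1% were called higher and 15.6% lower, shares that became 7.65% and 34.7% with spike-in totals, and the counts given here are read against the first pair. Qk, an RNA-binding protein of myelinating cells, was at 148 ± 9.63 TPM, and the sterol regulators Srebf2 and Scap were at 92.9 ± 1.47 and 45.3 ± 1.16 TPM (SD, n = 2 each). Of 6 markers of oligodendrocyte progenitors, 4 were tested and none was called in either direction; their log2 ratios ran from −0.16 to 0.01, led in level by Pdgfra at 12.5 ± 0.113 TPM (SD, n = 2).

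Markers of other cells gave mixed counts, beside the same 28.1% higher and 15.6% lower over all tested genes. Among astrocyte markers 2 of 6 were higher in replicate 2 and 1 lower, among inhibitory neuron markers 4 of 6 were higher and 0 lower, among microglia 3 of 5 were higher and 0 lower, and among endothelium 2 of 5 were higher and 2 lower. Cortical excitatory neuron markers had 1 of 6 higher and 3 lower.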
